A study of Arabidopsis thaliana with 12 samples.

Results

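The spots described here were 40 features of an Arabidopsis thaliana expression array, each annotated to 2 or more genes and each lower in the tpt1 mutant than in wild type (WT). A spot was taken when it had a value above 0 in all 12 samples, was lower in tpt1 in all 6 pairs of samples with the same number, and had a mean tpt1 minus WT difference at or below -0.5 on the log2 scale after quantile normalization. Of 870 spots with several genes, 58 met these conditions. Of these, 3 were left out as spots listed by identifier in the rule, and 15 because they were among the 60 brightest spots with several genes in WT. The remaining 40 stand against 3439 spots on the whole array. The spots were thus selected on their tpt1 minus WT values, and their differences are a description. How many passed the test across the array is given once for each scale or fit, beside the share of all spots, and supports nothing.

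The 6 tpt1 and 6 WT samples were total RNA of ecotype Wassilevskija, numbered 1 to 6 in each group. The labels describe tpt1 as a mutant whose chloroplasts have lost most of their transport of triose phosphate. The triose phosphate/phosphate translocator of the inner chloroplast envelope passes freshly fixed carbon to the cytosol in exchange for phosphate, which feeds sucrose synthesis in leaves. The tissue, the age of the plants, the number of plants per sample and the number of mutant lines are not given in the sources used here, so p-values may measure only technical spread.

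Genes that arose by duplication can stay so alike that one array probe binds the transcripts of several of them. A spot with several genes may then read a sum over relatives, in which the share of each gene cannot be told apart; how alike the genes of these spots are was not measured. The 40 spots carried 92 different genes, 29 spots with 2 genes, 8 with 3 and 3 with 4. The reference table gave 7 of the 92 genes a symbol of their own: COR15A, COR15B, FIB, TROL, BLT, NUP1 and AR781. AT4G22240 has no symbol, but a synonym, fibrillin 1b. The other genes are named by locus alone, without a role. COR15A and COR15B are the cold-regulated proteins of the chloroplast stroma that help to protect membranes during freezing. FIB is fibrillin, a structural protein of plastoglobules, the lipid droplets attached to thylakoids. TROL, a rhodanese-like protein of the thylakoid membrane, binds the ferredoxin-NADP reductase that ends linear electron transport.

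The deposited table spans 0 to 100, and no value of the 40 spots lay at either end. The median log2 intensity of spots above 0 lay between -1.42 and -0.88 in tpt1 samples and between -2.38 and -1.72 in WT samples, so the groups did not overlap. For that reason all changes below are after quantile normalization unless another scale is named, and "lower" means lower relative to the rest of the array. After subtraction of group means, neighbouring numbers (1 and 2, 3 and 4, 5 and 6) correlated across spots at 0.12 to 0.58 in tpt1 and -0.07 to 0.25 in WT. Independence of the 6 samples in each group is therefore not shown.

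COR15A and COR15B share 2 spots of the array, and both were among the 40, the only gene set of which that was true. On spot 3484 the normalized log2 intensity in samples 1 to 6 was -3.17, -2.89, -1.53, -1.82, -2.70 and -1.93 in tpt1, against -1.63, -1.25, -0.91, -0.81, -1.13 and -1.10 in WT. The tpt1 values of numbers 1, 2 and 5 lay far below all WT values, while tpt1 3 at -1.53 lay above WT 1 at -1.63, so the groups overlapped on that spot. The mean was -2.34 ± 0.66 in tpt1 and -1.14 ± 0.29 in WT (SD, n = 6 each), a difference of -1.20 (moderated SE 0.29), or 2.30-fold lower in tpt1.

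On spot 615 the same 2 genes read -0.72, -0.98, -1.23, -0.96, -0.56 and -0.58 in tpt1 samples 1 to 6, against 0.18, -0.32, -0.26, -0.39, 0.13 and -0.04 in WT samples 1 to 6. All 6 tpt1 values lay below all 6 WT values. The mean was -0.84 ± 0.26 in tpt1 and -0.12 ± 0.24 in WT (SD, n = 6 each), a difference of -0.72 (SE 0.16), or 1.65-fold lower. Its 6 differences within numbers were among the 5 most even of the 40 spots, with an SD of 0.17.

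The spots of the COR15 genes were both lower in tpt1 by selection, and they did not follow each other from sample to sample. Within the groups their values correlated at -0.46 over the 6 tpt1 samples and at -0.69 over the 6 WT samples, and their differences within numbers at -0.08. These are descriptions over few samples that share their arrays. On the deposited scale spot 3484 read a median of 0.27 (0.16 to 0.47) in tpt1 and 0.33 (0.26 to 0.47) in WT, and spot 615 a median of 0.77 (0.57 to 0.88) in tpt1 and 0.72 (0.65 to 1.08) in WT. On that scale the mean log2 differences were -0.32 and -0.04, and the groups overlapped on both spots.

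**Figure D1:**
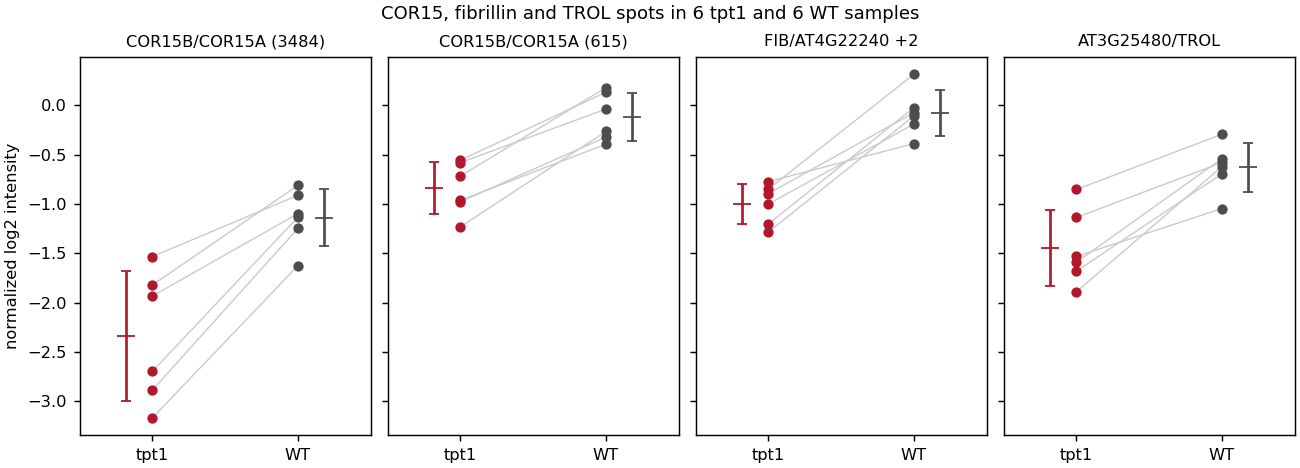
Normalized log2 intensity (vertical axis) of the spots of COR15A and COR15B, of fibrillin and of TROL in 6 tpt1 samples (red) and 6 WT samples (grey); lines join samples with the same number, and bars beside the points are the mean ± SD. In each panel every line runs lower in tpt1; levels of different panels come from different probes and are not comparable.

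The fibrillin spot carried FIB (fibrillin 1a), AT4G22240 (fibrillin 1b), AT2G35490 and AT5G09820. Its normalized log2 intensity ran from -1.28 over a median of -0.95 to -0.77 in tpt1, against -0.39 over -0.09 to 0.32 in WT, so the groups did not overlap. The difference of -0.92 (SE 0.15) was 1.90-fold, and it ranged over the 6 numbers from -1.18 to -0.39, with the smallest in number 3. It was one of the 5 brightest of the 40 spots, at a deposited median of 0.68 in tpt1 and 0.81 in WT.

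Other spots read some of the same genes singly. AT5G09820 on its own spot was lower in tpt1 in 6 of 6 numbers, at -2.88 ± 0.50 in tpt1 and -2.30 ± 0.58 in WT (SD, n = 6 each). Its log2 change of -0.58 (SE 0.32) did not pass the limma fit across all spots (adjusted p = 0.283), and did once sample numbers entered as a block (adjusted p = 0.0442). On the deposited scale the change of that spot was 0.36, where the median over all tested spots was 0.86. AT2G35490 on its own spot was higher in tpt1 in 6 of 6 numbers, at -1.46 ± 0.12 in tpt1 and -1.91 ± 0.48 in WT, a change of 0.45 (SE 0.22) that passed neither the limma fit (adjusted p = 0.218) nor the one with the block (adjusted p = 0.0753). The spot of all 4 genes and the spots of its single genes thus did not all lie on one side. A spot with FIB, AT4G22240 and AT2G46910 had values above 0 in 3 tpt1 samples and in 0 WT samples, too few to test. PGL34, a plastoglobulin, shares a spot with AT2G42130 whose change was 0.30 (SE 0.60, limma adjusted p = 0.799).

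TROL and AT3G25480 shared a spot that ran from -1.89 over a median of -1.56 to -0.85 in tpt1, against -1.05 over -0.60 to -0.29 in WT. Only the tpt1 5 value of -0.85 lay above the lowest WT value, that of WT 3. The difference was -0.82 (SE 0.20), and it was larger in numbers 1, 2 and 4 (-1.05, -1.27 and -0.99) than in numbers 3, 5 and 6 (-0.49, -0.56 and -0.56). TROL and the spots of BLT, NUP1 and AR781 are singled out because they carry the remaining symbols, and they were chosen with their values already known.

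BLT (BRANCHLESS TRICHOME), a gene of leaf hair branching, shared a spot with AT1G50660 and AT3G20350. It was the most uneven of the 40 over the numbers, from -0.03 in number 1 and -0.14 in number 2 to -1.53 in number 6, with a mean of -0.70 (SE 0.34). NUP1, a protein of the nuclear pore, and AT5G20200 had a difference of -0.60 (SE 0.18), which was near 0 in numbers 1 and 2 (-0.19 and -0.03) and between -0.91 and -0.71 in numbers 3 to 6. AR781 with AT2G15760 and AT3G62630 had one of -0.80 (SE 0.28), with -0.27 and -0.20 in numbers 2 and 4 and values between -1.15 and -1.04 in the other 4.

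The lowest spot of all carried AT1G54120, AT3G14040 and AT3G14060. It ran from -3.40 over a median of -2.73 to -1.81 in tpt1, against -1.75 over -0.91 to -0.27 in WT, with no overlap and a difference of -1.75 (SE 0.29), or 3.36-fold. Its samples differed widely within each group, by an SD of 0.55 in tpt1 and 0.49 in WT, yet the differences within numbers were even, from -2.01 to -1.54.

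The spot of AT3G02610, AT3G02620 and AT5G16230 ran from -3.63 over -3.07 to -2.78 in tpt1, against -2.33 over -1.32 to -0.96 in WT, a difference of -1.57 (SE 0.29). The groups did not overlap, and the differences ranged from -2.16 in number 5 to -0.65 in number 2. The spot of AT2G42520, AT3G02065, AT3G58510 and AT3G58570 ran from -2.04 over -1.35 to -1.14 in tpt1, against -0.33 over -0.11 to 0.22 in WT, a difference of -1.42 (SE 0.19) with a wide gap between the groups. On the deposited scale its change was -0.76.

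AT3G07310 and AT5G48590 followed at -1.37 (SE 0.24), with tpt1 values from -2.91 to -1.62 and WT values from -1.37 to -0.41. AT1G27690, AT1G27695 and AT5G06610 had -1.21 (SE 0.15), with tpt1 values from -1.85 to -1.23 and WT values from -0.64 to -0.03. Neither overlapped. The AT1G27690 spot was the most even of the 40, its 6 differences lying between -1.49 and -1.09 with an SD of 0.14.

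The next 4 after spot 3484 were less sharply separated. AT2G05910 and AT5G20640 had a difference of -1.12 (SE 0.37) that was only -0.18 in number 4. AT2G43860, AT2G43865, AT2G43870 and AT3G59850 had -1.10 (SE 0.36), with tpt1 values from -2.99 to -1.36 and WT values from -1.95 to -0.14. These first 2 of the 4 overlapped between the groups. AT2G40800 and AT3G56430 had -1.07 (SE 0.25), with a slight overlap of tpt1 values up to -0.92 and WT values down to -1.04. AT2G44940 and AT3G60490 had -1.02 (SE 0.19) without overlap, the difference being -0.21 in number 1 and -1.60 in number 5.

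Over all 40 spots the mean difference ran from -1.75 to -0.51 with a median of -0.80, which is 1.74-fold. Over all 2849 spots tested the median was 0.08, and over the 720 tested spots with several genes it was also 0.08. In the limma fit 27 of the 40 passed an adjusted p of 0.05, where 6.39% of all tested spots were called lower. With the sample number as a block 39 did, against a background of 14.3%, the exception being AT3G04550/AT5G28500. All 6 tpt1 values lay below all 6 WT values on 17 of the 40 spots, and on 4.53% of the spots with all 12 values. With neighbouring numbers averaged and their set as a block 21 of the 40 passed, beside 5.44% of all tested spots. The selection used the same contrast, so nothing is read from these shares.

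The selection made every difference negative in all 6 numbers, so only the size could vary between numbers. The median difference over the 40 spots was -0.93, -0.68, -0.78, -0.77, -0.90 and -0.85 in numbers 1 to 6. The largest difference of a spot was in number 1 for 9 spots and in number 4 for 2, and the smallest in number 2 for 13 spots and in number 5 for 2. AT3G10290/AT5G04160 and AT1G48490/AT3G17850 were lowest in numbers 5 and 6, at -1.46 and -1.47 for AT3G10290/AT5G04160 and at -1.50 and -1.24 for AT1G48490/AT3G17850. AT2G42220/AT3G08920 showed the opposite order, with -1.14 in number 1 and -0.18 in number 6.

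**Figure D2:**
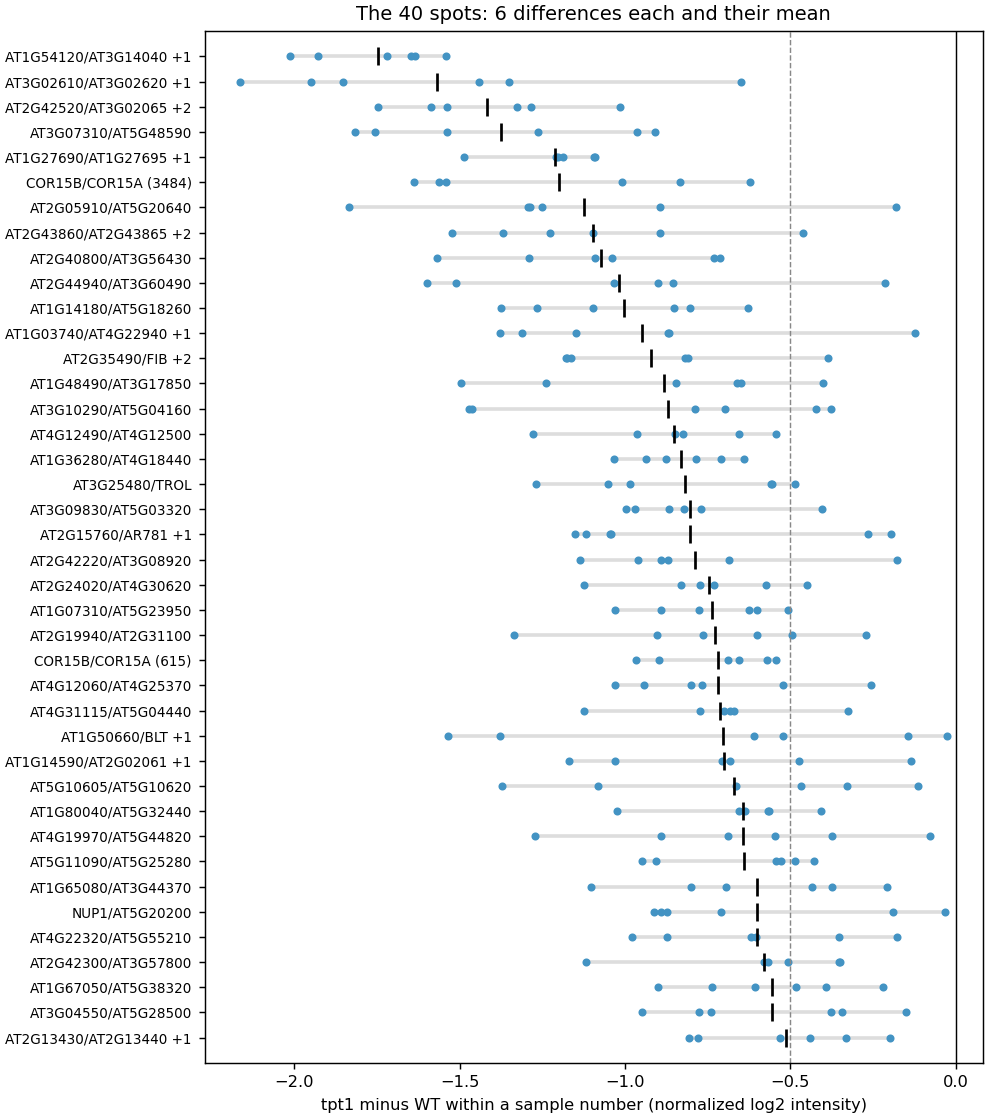
Differences tpt1 minus WT within each of the 6 sample numbers (points, normalized log2 intensity on the horizontal axis) and their mean (black tick) for the 40 spots, sorted by the mean; "+1" or "+2" after a label stands for further genes of the spot. The selection placed all points below 0 (solid line) and all means at or below -0.5 (dashed line), and the spread of points varies from an SD of 0.14 to 0.63.

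The brightest of the 40 in WT were the AT2G42520 spot, the fibrillin spot and 3 others. AT2G13430, AT2G13440 and AT2G13450 read a deposited median of 0.96 in tpt1 and 0.89 in WT, and after normalization the smallest difference of the 40, -0.51 (SE 0.16). AT3G09830 and AT5G03320 had -0.81 (SE 0.26) at deposited medians of 0.65 in tpt1 and 0.80 in WT. AT2G42220 and AT3G08920 had -0.79 (SE 0.18) at 0.69 in tpt1 and 0.80 in WT, without overlap of the normalized values. The remaining 2 of the 5 most even spots were AT1G36280/AT4G18440 at -0.83 (SE 0.18), without overlap, and AT1G07310/AT5G23950 at -0.74 (SE 0.23), with overlap.

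**Figure D3:**
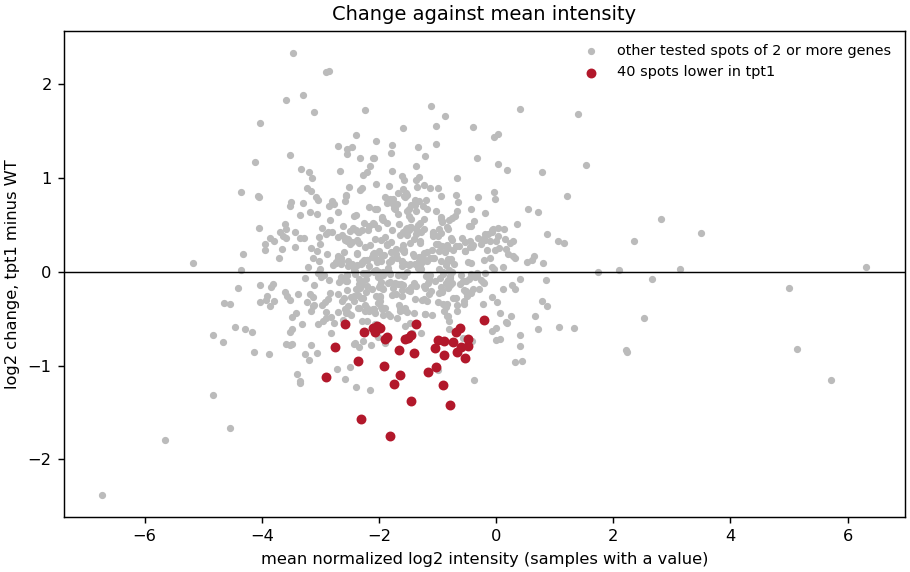
Log2 change tpt1 minus WT (vertical axis) against the mean normalized log2 intensity of the samples with a value (horizontal axis) for tested spots with several genes; red points are the 40 spots. The rule left out spots at 0 in any sample and the 60 brightest, so none of the 40 lies at either end of the intensity range.

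On the scale as deposited the 40 spots lay on both sides of 0. Their deposited medians ran from 0.15 to 0.96 in tpt1 and from 0.12 to 0.89 in WT, and the median of the spots was higher in tpt1 for 19 of the 40 and lower for 21. The median log2 change was -0.015, from -0.91 to 0.38, and 22 of the 40 lay below 0. Over all tested spots the same median was 0.86, and 11.9% lay below 0. Limma called 1 of the 40 lower and 0 higher on that scale, where 2.56% of all spots were called lower. With each array centred on its median all 40 lay below 0, with a median of -0.88, and 29 were called lower against 12.5% of all spots. The spots are thus lower in tpt1 relative to an array whose other spots read higher there, and whether the amount of their transcripts per cell differed was not measured.

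**Figure D4:**
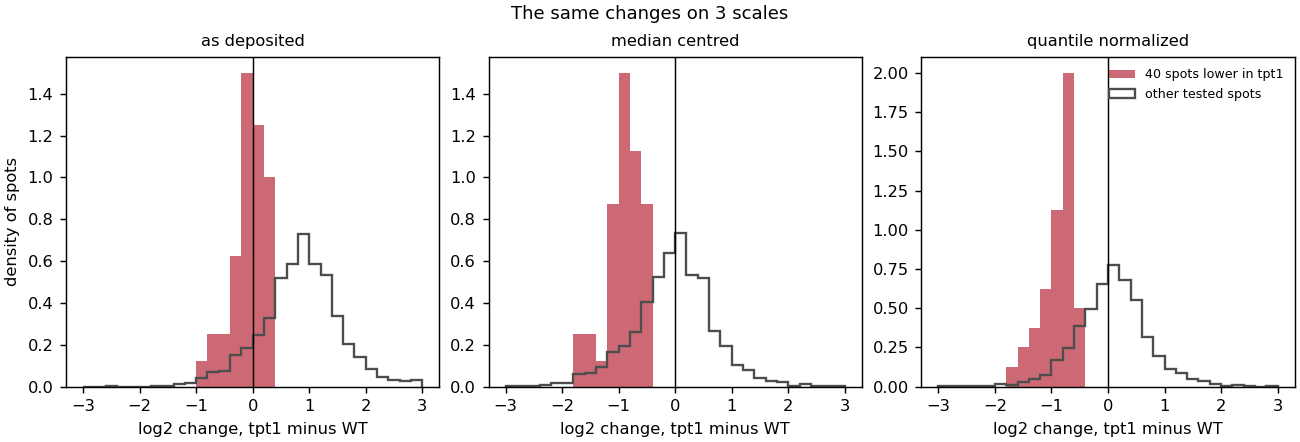
Distribution of log2 changes tpt1 minus WT (horizontal axis; values beyond 3 in either direction are drawn at the edge) for the 40 spots (red) and all other tested spots (outline), as deposited, with each array centred on its median, and quantile normalized. As deposited the red spots centre on -0.015, whereas all tested spots together have a median of 0.86.

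Of the 40 spots, 16 had another spot on the array that shared at least 1 gene. Apart from the COR15 pair there were 18 such spots, of which 14 could be tested. Their own values did not choose them directly, but a spot with several genes that met the rule would have been one of the 40 unless left out, and all were reached through genes of the 40. Their counts are therefore not independent of the selection. Of the 14, 9 were below 0 and 5 above 0. The fit called 1 of them lower and 0 higher, where 12.8% of all tested spots were called in either direction. With the sample number as a block it called 2 lower and 2 higher, against a background of 31.8%.

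The spot called lower carried AT1G11690, AT1G50660 and AT3G20350, which shares the last 2 genes with the BLT spot and was one of the 60 brightest. It read 0.41 ± 0.14 in tpt1 and 1.02 ± 0.42 in WT (SD, n = 6 each), a change of -0.61 (SE 0.18, limma adjusted p = 0.0399), lower in 5 of 6 numbers. AT1G54120 and AT3G14060, which both belong to the lowest spot of the 40, also shared a spot that was higher in tpt1 in 6 of 6 numbers. That spot read -1.83 ± 0.43 in tpt1 and -2.52 ± 0.31 in WT, a change of 0.70 (SE 0.24) with a limma adjusted p of 0.0804, and of 0.0123 with the block.

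Spots with exactly the same genes did not always lie on the same side. Outside the 40, 4 such spots were tested, of which 2 were above 0 and 2 below. AT2G44940 and AT3G60490 had a difference of -1.02 on the spot among the 40 and of 0.55 (SE 0.32) on the other, which was higher in tpt1 in 6 of 6 numbers (limma adjusted p = 0.296, with the block 0.00856). AT4G12060 and AT4G25370 had -0.72 on one and 1.02 (SE 0.47) on the other (adjusted p = 0.181, with the block 0.0563), higher in 5 of 6 numbers. AT4G22320 and AT5G55210 had -0.60 and -0.11 (SE 0.24, adjusted p = 0.805). AT3G04550 and AT5G28500 had -0.56, and -1.80 (SE 1.16, adjusted p = 0.38) on a spot with values in only 5 tpt1 and 4 WT samples. Across the array, 40 pairs of spots had the same several genes and all 12 values on both. Their changes had the same sign in 20 pairs and opposite signs in 20, with a median gap of 0.49 on the log2 scale.

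AT3G02610 and AT3G02620 had a second spot at -0.28 (SE 0.22, limma adjusted p = 0.474). AT5G16230 had one of its own at -0.25 (SE 0.36, limma adjusted p = 0.716), and the spot that carries all of these genes read -1.57. The 40 were chosen for low values, so nothing is read from other spots lying closer to 0, here or below. AT3G58570 alone read -0.13 (SE 0.41), and AT2G42520, AT3G58510 and AT5G19210 together -0.64 (SE 0.42), beside the -1.42 of the spot among the 40 (adjusted p = 0.88 and 0.381). AT1G27690 with 3 other genes read -0.44 (SE 0.33, adjusted p = 0.444). AT5G11090, AT5G20370 and AT5G25280 read 0.19 (SE 0.31, adjusted p = 0.758), although that spot was lower in tpt1 in 4 of 6 numbers.

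**Figure D5:**
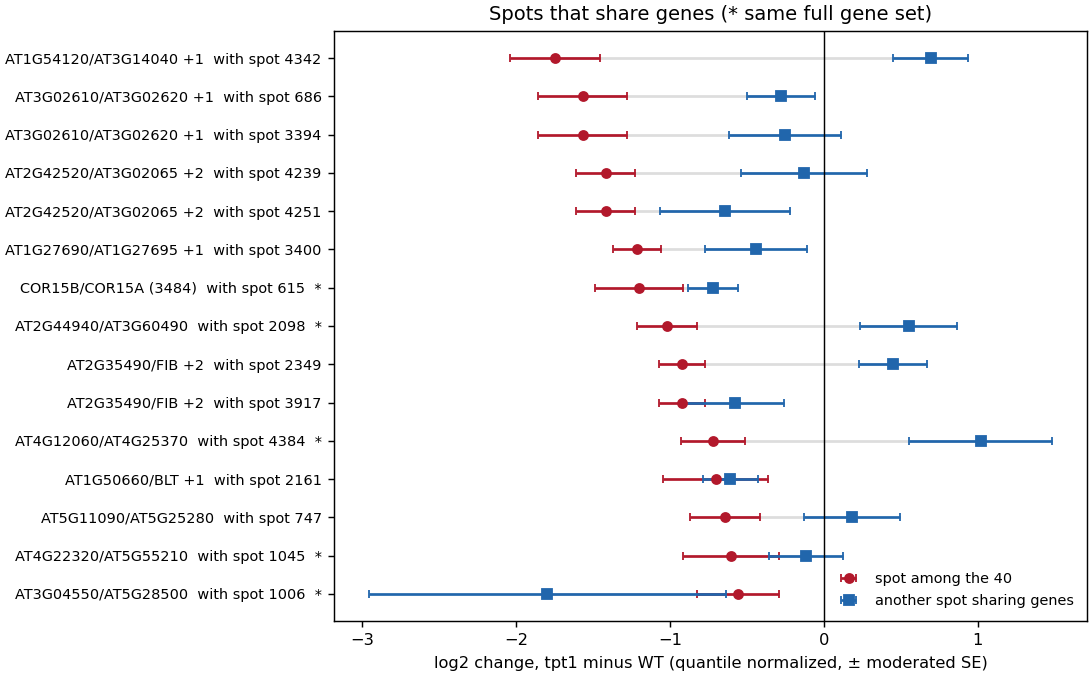
Log2 change tpt1 minus WT (horizontal axis, ± moderated SE) of spots among the 40 (red circles) and of other tested spots that share at least 1 gene with them (blue squares); an asterisk marks pairs with the same full gene set. For COR15B/COR15A both spots are among the 40; 5 of the blue squares lie above 0.

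The genes of a spot lay near each other on a chromosome in some cases and apart in others. On 10 of the 40 spots, 25%, at least 2 genes were at most 10 protein-coding genes apart, against 16.8% of all 870 spots with several genes. Among the 597 of these with all 12 values, which the rule required, the share was 17.9%. Both spots of COR15A and COR15B are among the 10, so that set counts on each. The other sets with genes this close were AT2G13430/AT2G13440/AT2G13450, AT4G12490/AT4G12500, AT5G10605/AT5G10620, and parts of the AT1G54120, AT3G02610, AT2G42520, AT1G27690 and AT2G43860 spots. Genes on both chromosome 2 and chromosome 3 were on 7 of the 40 spots, 17.5%, against 11.8% of the 870 and 10.1% of the 597. These are counts of the annotation and were not tested.

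Just inside the threshold of -0.5 lay AT1G67050/AT5G38320 at -0.56, AT3G04550/AT5G28500 at -0.56 and AT2G13430/AT2G13440/AT2G13450 at -0.51. Just outside it, and also lower in 6 of 6 numbers, lay AT4G35690/AT4G35710 at -0.47, a spot of AT2G38830, ELC and ELC-Like at -0.45, and AT1G02405/AT1G23040/AT1G70990 at -0.44.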

How the data were processed

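The values are the spot intensities the authors deposited for 6 tpt1 and 6 WT arrays, on a linear scale from 0 to 100. How spots were read, corrected and scaled, and what a 0 stands for, are not given in the sources used here. Zeros were set as missing, values taken as log2 and quantile normalized. Testing required 4 or more nonzero values per group. The 2849 spots that qualified were fitted with limma 3.58.1 (lmFit, eBayes with a trend, in R 4.3.3). Sample numbers entered the fit only where a block is named, and all SEs come from the fit without them. The SEs therefore do not measure the spread of the differences within numbers. P-values were adjusted by Benjamini-Hochberg across the 2849 spots and called at 0.05. The fit was tried on simulated data with noise independent between samples, unlike the correlated samples here. It found 51 of 100 changes of 1 log2 unit and 84 of 100 of 2, with 6 false calls. With the sample number as a block it found 37 and 82, with 12 false calls. The number of arrays limits the precision. Figures were drawn with matplotlib 3.10.9.

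Genes came from the platform annotation, while symbols and neighbours were read from RefSeq's TAIR10.1 gene table. All 92 genes matched. No protein or promoter sequences were used here, so likeness of a spot's genes was not measured. Named are the 10 lowest spots, the 5 brightest in WT, the 5 with the most even differences, spots sharing a gene set and 3 beside the threshold. Further spots, among them AT3G10290/AT5G04160 and AT1G48490/AT3G17850, were named with their values already known. The members, lists and tests were chosen with earlier results of these data known. Of 40 word lists for families and other tissues, matched in symbols and synonyms, 26 had no spot, including the seed, pollen and root lists. Only the fibrillin list held a member. The lists were written for gene descriptions, which were not available, and only 7 of the 92 genes had a symbol of their own. An empty list is therefore no sign that a family or tissue is absent. Once group means were subtracted, the correlation of same-numbered samples over spots was 0.42 to 0.56, and the numbers were taken as pairs. Neighbouring numbers within tpt1 correlated at up to 0.58, so same-numbered samples were not always the most alike. The labels do not say what a number marks. Other scales, filters, a pseudocount, blocks and left-out samples were tried.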

Additional observations from a re-analysis of the deposited data

Results flagged for a closer look

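The normalized log2 intensities of the 40 spots in each group gave 80 groups of 6 values, of which 2 held a sample far from the others, where 4 are expected by chance. AT2G44940/AT3G60490 had -0.85 in WT 1, while the remaining WT samples had -0.55 to -0.37. Without that sample its difference was -1.09, against -1.02 with it. AT1G50660/BLT/AT3G20350 had -1.74 in WT 3, while the remaining WT samples had -1.14 to -0.87, and without it the difference was -0.82, against -0.70 with it.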

How the results depend on the processing

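On the deposited scale 1396 spots of the array were called in place of 364, 1 of the 40 in place of 27, and 3 spots met the selection rule in place of 40; the median of the 40 was -0.015, and AT2G13430/AT2G13440/AT2G13450 and AT1G36280/AT4G18440 turned to 0.098 and 0.031. Median centring gave 489 calls and 49 spots under the rule. A pseudocount of 0.1 gave a median of -0.67. With the replicate block 906 spots were called, and at an adjusted p of 0.01 144. With neighbours averaged and their set as a block 351 were called, 21 of the 40 among them, and 52 spots met the rule. Omitting each sample in turn left 272 to 338 called spots, 20 to 25 of the 40, medians from -0.82 to -0.75, and 40 to 49 spots under the rule. The other filters and orders of exclusion, and a threshold of -0.4 or -0.6 (48 and 36 spots), stayed within 1.5 times. Of the 17 named spots, 2 turned on the deposited scale, as given above, and 0 under the other settings, most of which the selection keeps from turning. The rule was not refitted under the filters or the block on single numbers, which do not enter it. The protein identity of a spot's genes was not run.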

Other observations

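AT2G42520, of the spot with the third lowest change, lies 2 protein-coding genes from COR15A, with COR15B between them, a neighbourhood examined after the values were seen. Within 50 protein-coding genes on either side of COR15A, 17 spots carried a gene and 14 were tested. Of these, 5 were among the 40 and so lower by selection: both COR15 spots, the AT2G42520 spot, AT2G42220/AT3G08920 and AT2G42300/AT3G57800 at -0.58 (SE 0.34). Of the other 9, 6 were below 0 and 3 above. The limma fit called 0 of these 9 at an adjusted p of 0.05, where 12.8% of all tested spots were called in either direction. At an unadjusted p of 0.05 the count was also 0 of 9, and the share of all spots at that threshold is not given here. They ranged from -0.64 for the second AT2G42520 spot to 0.30 for the BZIP34 spot with 4 genes and for AT2G42130/PGL34. Most of these spots also carry a gene elsewhere in the genome.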
